A study of Mus musculus with 6 samples.

Results

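The transparency of the cornea depends on keratocytes, the fibroblast-like cells of its stroma, which surround evenly spaced collagen fibrils with small leucine-rich proteoglycans. These secreted proteins bind collagen and set fibril diameter and spacing, and several carry keratan sulfate or dermatan sulfate chains that hold water. The 10 genes described here encode 8 such proteoglycans and 2 other proteins secreted in the anterior eye. They were chosen by symbol from the deposited gene table and all 10 were found among its 35673 genes. The proteoglycans are Dcn, Bgn and Aspn of class I, Lum, Kera, Fmod and Prelp of class II and Ogn of class III. The other members are Angptl7, an angiopoietin-like factor known to limit vessel growth in the cornea, and Ptgds, the lipocalin-type prostaglandin D synthase.

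Corneal RNA was sequenced in 3 libraries titled Cationorm and 3 titled Control. Both groups came from C57BL/6J males of 6 to 8 weeks, with no transgene or deletion named. Cationorm is a cationic oil-in-water eye drop, given as repeated daily drops of 5 µL for 14 days. It followed a dry eye model in which 0.1% benzalkonium chloride, an eye drop preservative toxic to the corneal surface, was combined with 6 h of contact lens wear per day. Every library, Control included, carries the CLDE condition tag (contact lens dry eye) and the treatment tag "wild-type". The labels therefore do not settle whether the Control animals went through the model. The comparison asks how corneal transcript levels differ between the libraries of these titles. Nothing in the labels ties each replicate to its own animal, so p-values reflect only how far these libraries differ, and that spread may be technical.

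Total counts lay between 32486043 and 38542164 in the Cationorm libraries and between 34589433 and 39193311 in the Control libraries. Levels are given as CPM (counts scaled to library size) after TMM scaling, a correction for library composition. The corneal epithelial markers Krt12 and Krt5 were abundant in every library, at 8721 ± 304 CPM and 19546 ± 1186 CPM in Cationorm and 8652 ± 268 CPM and 19962 ± 1369 CPM in Control (SD, n = 3 each). Markers of other eye tissues were present as well. No gene of the 16 marker lists that was found in the gene table was at 0 counts in all libraries. Of the trabecular meshwork list 9 of 10 genes were found there, of the lens list 10 of 11 and of the conjunctiva list 5 of 6. Some genes, such as Muc5ac and Tcf21, were too low to be tested.

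The proteoglycan classes can be read from the coding sequence. Each class has its own spacing of 4 cysteines at the amino-terminal end of the leucine-rich domain, and the stretch is shown because the results below are ordered by these classes. The sequences were read from GENCODE M21 transcripts (GRCm38), run 5′ to 3′, and have the cysteine codons in capitals. In the class II genes 3, 1 and 9 codons separate the cysteines:
Lum: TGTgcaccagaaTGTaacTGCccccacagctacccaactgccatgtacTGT
Kera: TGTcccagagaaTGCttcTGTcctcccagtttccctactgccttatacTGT
Fmod: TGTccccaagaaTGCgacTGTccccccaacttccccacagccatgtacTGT
Prelp: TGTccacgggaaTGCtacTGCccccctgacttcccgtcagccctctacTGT
In the class I genes the gaps are 3, 1 and 6 codons:
Dcn: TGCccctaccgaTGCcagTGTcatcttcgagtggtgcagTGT
Bgn: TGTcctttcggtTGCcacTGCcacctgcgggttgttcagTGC
Aspn: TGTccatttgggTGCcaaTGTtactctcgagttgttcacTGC
In the class III gene the gaps are 2, 1 and 6 codons:
Ogn: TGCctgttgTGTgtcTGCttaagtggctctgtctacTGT

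These stretches lie within the coding sequence, at codons 37 to 53 of 338 in Lum, 43 to 59 of 351 in Kera, 49 to 62 of 354 in Dcn and 94 to 106 of 298 in Ogn. Within class II, Fmod was identical to each of Lum, Kera and Prelp at 40 of 51 bases, and the other pairs were identical at 36. Within class I, Bgn and Aspn shared 31 of 42 bases, Dcn and Bgn 29, and Dcn and Aspn 27. Most proteoglycan members lie next to relatives in the genome. In the RefSeq annotation of GRCm38, Dcn, Lum, Kera and the related Epyc are in a row on chromosome 10, Ecm2, Aspn, Omd and Ogn on chromosome 13, and Optc, Prelp and Fmod on chromosome 1.

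No member passed the test between Cationorm and Control, although Kera was lower and Ptgds higher in Cationorm without overlap between the groups. All 10 passed the filter on low counts, with at least 257 counts in every library, and 0 were called by edgeR's quasi-likelihood test with Benjamini-Hochberg adjustment over 18804 genes. Over all genes that test called 0 (0%), with 1641 genes at an unadjusted p under 0.05. The smallest adjusted p of any gene in that test was 0.550, a value that many genes share, so it does not rank them. DESeq2 called 47 genes (0.25%) and limma-voom 0, and no member was among them. Of the members 4 had a positive and 6 a negative log2 fold change (Cationorm over Control), with a median of -0.14, against a median of 0.01 over all tested genes. At an unadjusted p under 0.05, 3 members were lower in Cationorm (Kera, Lum and Angptl7), where 3.57% of all genes were, and 1 was higher (Ptgds), where 5.16% of all genes were. Groups that did not overlap were seen for 1 member with lower levels in Cationorm, Kera, against 6.09% of all genes, and for 1 with higher levels, Ptgds, against 8.73% of all genes.

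**Figure D1:**
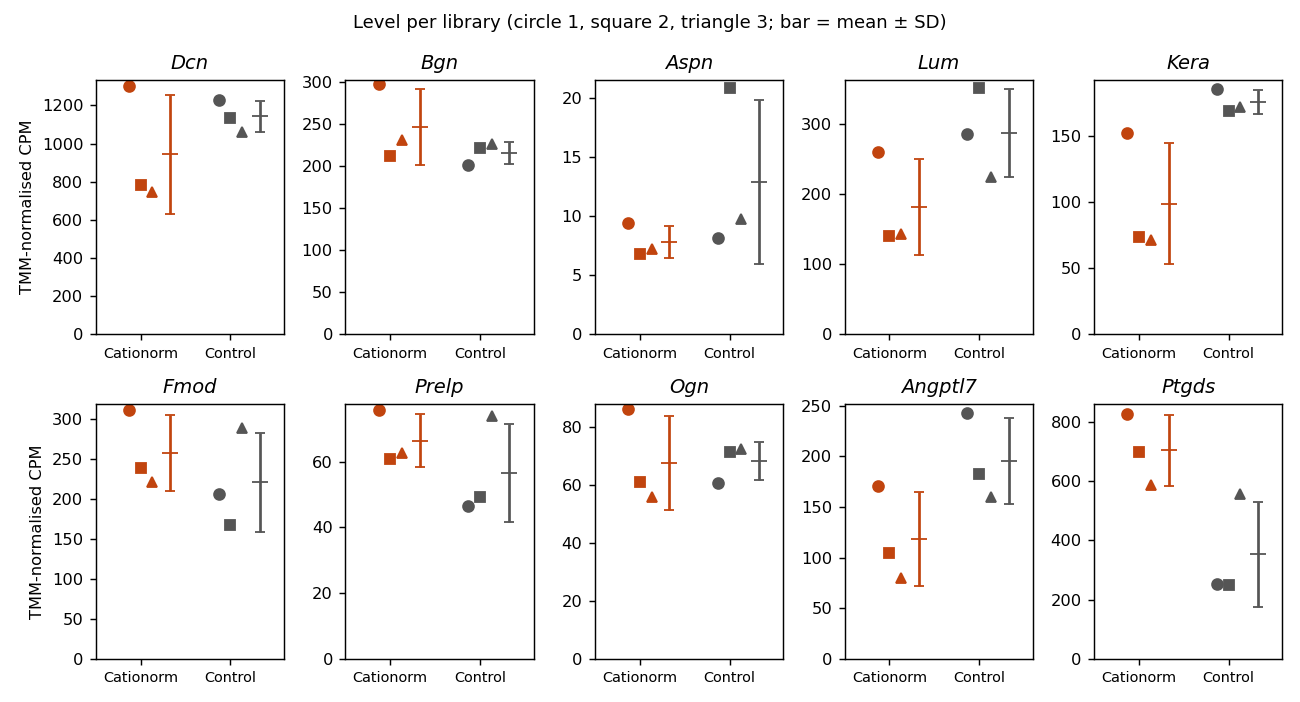
Level of each member in every library, in TMM-normalised CPM on linear axes from 0, with Cationorm libraries on the left of each panel and Control libraries on the right. Bars give the mean ± SD of 3 libraries, and Cationorm 1 (circle) is the highest Cationorm library in all 10 panels.

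**Figure D2:**
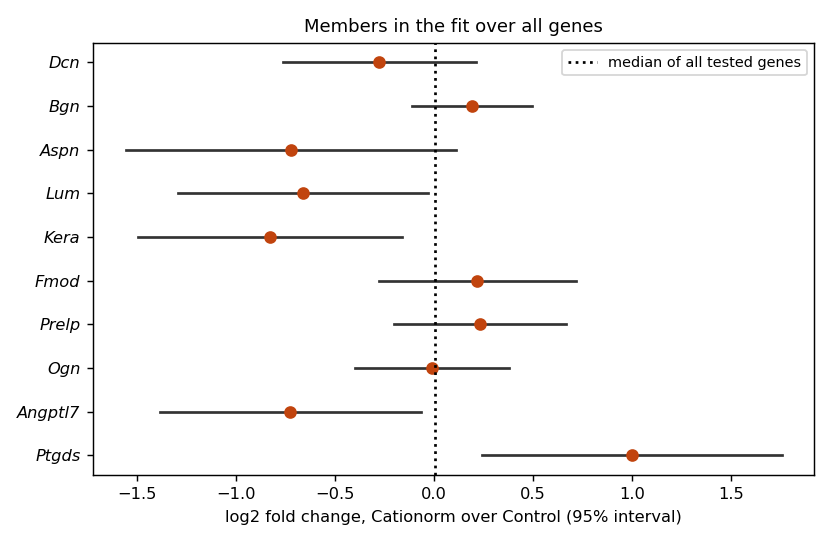
Fitted log2 fold change (Cationorm over Control) of each member with its 95% interval, ordered by class, and the median of all tested genes as a dotted line. The intervals of Lum, Kera, Angptl7 and Ptgds leave out 0 before adjustment, and adjusted p was 0.550 for each. This is the smallest adjusted p of any tested gene (edgeR).

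Per kilobase of the longest protein-coding transcript, Ptgds and Dcn stood at the top of the members in both groups. In Cationorm, Ptgds was at 781 ± 133 CPM per kb and Dcn at 537 ± 176 CPM per kb (SD, n = 3), and their ranges overlapped. In Control, Dcn was at 650 ± 46.8 CPM per kb and Ptgds at 391 ± 196 CPM per kb, again with overlapping ranges. Bgn, Fmod, Lum, Angptl7 and Kera followed, between 43.5 and 102 CPM per kb in Cationorm and between 70.6 and 117 CPM per kb in Control. Neighbours in that middle order overlapped, except Bgn and Kera in Control. Ogn, Prelp and Aspn were the lowest in both groups, at 26.3, 18.4 and 3.35 CPM per kb in Cationorm and 26.5, 15.6 and 5.53 CPM per kb in Control, and Prelp lay apart from Ogn and from Aspn in each group. The order depends on the length used. With all exons merged, Dcn and Bgn are 5.84 and 6.10 kb long, and Ptgds lay above Dcn in Control as well, at 214 CPM per kb against 196. Bgn was then at 40.4 CPM per kb in Cationorm and 35.4 CPM per kb in Control, below Fmod, Lum, Angptl7 and Kera in both groups.

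Kera encodes keratocan, a keratan sulfate proteoglycan used as a marker of keratocytes. Its level was 152, 73.5 and 71.6 CPM in Cationorm 1 to 3, against 186, 169 and 173 CPM in Control 1 to 3. The groups did not overlap, the Control libraries lay close together, and Cationorm 1 lay nearer to Control than to the other Cationorm libraries. The log2 fold change was -0.83 ± 0.28 (SE), with a 95% interval of -1.49 to -0.16 and an adjusted p of 0.550 (edgeR). It was -1.28 without Cationorm 1 (adjusted p = 0.0558) and -0.64 without Cationorm 3 (adjusted p = 0.343). In bulk tissue, fewer cells of a type and less RNA per cell cannot be told apart.

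Lum encodes lumican, the other major keratan sulfate proteoglycan of the stroma and the genomic neighbour of Kera. It was at 260.5, 141 and 144 CPM in Cationorm 1 to 3, against 286, 351 and 225 CPM in Control 1 to 3. Cationorm 2 and 3 lay below every Control library, while Cationorm 1 lay within the Control range. The log2 fold change was -0.66 ± 0.27 (SE, adjusted p = 0.550, edgeR), and with a library left out it lay between -1.01 (without Cationorm 1) and -0.51 (without Control 2). The ratio of Kera to Lum CPM was 0.585, 0.521 and 0.499 in Cationorm 1 to 3 and 0.652, 0.481 and 0.767 in Control 1 to 3, so the groups overlapped in the balance of these neighbours.

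The remaining class II members, Fmod and Prelp, had positive log2 fold changes. Fmod encodes fibromodulin, a collagen-binding keratan sulfate proteoglycan abundant in sclera and tendon. It was at 311, 238 and 221 CPM in Cationorm 1 to 3, against 206, 167 and 288 CPM in Control 1 to 3. The highest Control library, Control 3, lay above Cationorm 2 and 3, and the log2 fold change was 0.22 ± 0.21 (SE, adjusted p = 0.712, edgeR). Prelp, a basic leucine-rich protein that anchors basement membranes to connective tissue, was at 75.8, 60.7 and 62.8 CPM in Cationorm and 46.6, 49.2 and 73.8 CPM in Control. Its log2 fold change was 0.23 ± 0.18 (SE, adjusted p = 0.652, edgeR), and the groups overlapped through Control 3. Both values moved in either direction when a library was left out. Fmod was at 0.46 without Control 3, 0.06 without Cationorm 1 and 0.04 without Control 2. Prelp was at 0.47 without Control 3, 0.13 without Cationorm 1, 0.12 without Control 2 and 0.11 without Control 1.

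Dcn encodes decorin, a dermatan sulfate proteoglycan that binds collagen fibrils and TGF-beta. Its level was 1301, 782 and 748 CPM in Cationorm 1 to 3, against 1227, 1137 and 1063 CPM in Control 1 to 3. The highest and the lowest library were both Cationorm libraries, and the log2 fold change was -0.28 ± 0.21 (SE, adjusted p = 0.631, edgeR). Bgn, encoding biglycan, the closest relative of decorin, was at 297, 212 and 231 CPM in Cationorm and 201, 221 and 226 CPM in Control. Its log2 fold change of 0.19 ± 0.13 (SE, adjusted p = 0.603, edgeR) came with overlapping groups. Aspn encodes asporin, a class I protein known to inhibit TGF-beta in cartilage, and was the least abundant member, at 9.39, 6.82 and 7.23 CPM in Cationorm and 8.12, 20.8 and 9.73 CPM in Control. Its log2 fold change of -0.72 ± 0.35 (SE, adjusted p = 0.550, edgeR) was -0.21 without Control 2, the library in which it was highest, and -0.97 without Control 1.

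Ogn encodes osteoglycin (mimecan), a keratan sulfate proteoglycan in the cornea. It was at 86.0, 60.8 and 55.9 CPM in Cationorm 1 to 3, against 60.6, 71.3 and 72.3 CPM in Control 1 to 3. The Control values lay inside the Cationorm range, and the log2 fold change was -0.01 ± 0.17 (SE, adjusted p = 0.986, edgeR), with a 95% interval of -0.40 to 0.38. Ogn and Aspn lie within Cenpp on the opposite strand, and Cenpp was at 2.52 ± 0.468 CPM in Cationorm and 2.60 ± 0.882 CPM in Control. These overlaps are of whole gene spans, and overlap of exons was not examined. The strand setting of the counting is not given in the sources used here, so whether such pairs shared reads is not known.

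Angptl7 is expressed in corneal stroma and trabecular meshwork, and in humans rare variants of it are linked to eye pressure. It was at 170, 105 and 80.1 CPM in Cationorm 1 to 3, against 243, 183 and 160 CPM in Control 1 to 3. Cationorm 2 and 3 lay below all Control libraries, and Cationorm 1 lay between Control 3 and Control 2. The log2 fold change was -0.72 ± 0.28 (SE, adjusted p = 0.550, edgeR), and with a library left out it lay between -1.08 (without Cationorm 1) and -0.51 (without Cationorm 3). Angptl7 lies within Mtor on the opposite strand, and Mtor was at 62.8 ± 2.38 CPM in Cationorm and 58.8 ± 2.91 CPM in Control.

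Ptgds makes prostaglandin D2 and also serves as a secreted carrier of small lipophilic molecules, and it is expressed in meninges and pigmented epithelia of the eye as well as in cornea. It had the largest fold change of the members. Its level was 827, 698 and 587 CPM in Cationorm 1 to 3, against 252, 248 and 557 CPM in Control 1 to 3. The groups did not overlap, with Control 3 just below Cationorm 3 and far above the other Control libraries. The log2 fold change was 0.999 ± 0.322 (SE), with a 95% interval of 0.24 to 1.76 and an adjusted p of 0.550 (edgeR). It was 1.49 without Control 3 (adjusted p = 0.0601) and 0.78 without Control 2 (adjusted p = 0.774).

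The pigment cell list had the same order of Control libraries as Ptgds, and so had several other lists. Among these were the pericyte and smooth muscle, vascular and Schwann cell lists. The retinal pigment epithelium list, another of them, held 0.0324%, 0.0267% and 0.0626% of counts in Control 1 to 3. The list of 12 iris, ciliary body and pigment cell markers held 0.136% to 0.164% of counts in Cationorm and 0.0593%, 0.0508% and 0.122% in Control 1 to 3. All 12 had positive log2 fold changes (median 0.92), 0 were called over all genes, and none was at 0 counts in all libraries. Of the other genes for prostaglandin synthesis and its receptors, 8 were tested. Among them, 4 had positive and 4 negative log2 fold changes (median 0.01), and 0 were called. Hpgds, the other prostaglandin D synthase, was at 120.2 ± 8.37 CPM in Cationorm and 123 ± 15.5 CPM in Control. Of the meningeal list, 4 of 6 tested genes had positive and 2 negative log2 fold changes (median 0.12), with 0 called. Slc13a4 had 1.63 ± 0.27 (SE) without overlap, and Slc6a13 had 0.99 ± 0.36 with overlap (adjusted p = 0.550 for each, edgeR). Foxc1, another gene of this list, did not share their direction, at -0.12 ± 0.09 (SE) with overlap (adjusted p = 0.631, edgeR). Its mean level was 106 CPM in Cationorm and 115 CPM in Control. Slc6a13 was at 21.6, 24.8 and 16.2 CPM in Cationorm 1 to 3 and 7.45, 6.92 and 17.2 CPM in Control 1 to 3. The part of these tissues in the level of Ptgds was not tested.

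The genes with patterns most like a member were found by the root mean square difference of log2 levels over the 6 libraries, each gene centred on its own mean, among 10031 genes of at least 10 CPM. For Ptgds these were the pigment cell genes Mlana (0.0556) and Dct (0.0656) and the bicarbonate transporter gene Slc4a5 (0.0843). Dct was at 686, 587 and 556 CPM in Cationorm 1 to 3 and 226, 210 and 490 CPM in Control 1 to 3. The nearest member, Prelp, was at a distance of 0.465 from Ptgds.

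Kera and Angptl7 were each other's nearest member (0.196), nearer than any non-member gene. Outside the members, Lum lay nearest to Dpt (0.151), which encodes dermatopontin, a matrix protein that binds decorin, and to the fibril collagen gene Col5a2 (0.208). Dpt was also the non-member nearest to Kera (0.276). Dcn lay nearest to A2m (0.111), a secreted protease inhibitor, and to the lipocalin gene Apod (0.124). Dpt was at 39.9, 26.9 and 24.6 CPM in Cationorm 1 to 3 and 41.2, 52.1 and 40.04 CPM in Control 1 to 3, and its log2 fold change was -0.55 (adjusted p = 0.550, edgeR). Fmod and Prelp, neighbours on chromosome 1, were each other's nearest member (0.127), as were Bgn and Ogn (0.137). Non-member genes lay nearer to each of these members. The nearest were Fndc1 for Fmod (0.0546), Slc9a9 for Prelp (0.0599), Trp53i11 for Bgn (0.0406) and Serping1 for Ogn (0.0577). Aspn lay nearest to Clec2d (0.0955) and to the interferon-induced genes Irf7 (0.141) and Isg15 (0.158). This likeness rests mainly on Control 2, where Aspn was at 20.8, Clec2d at 36.3, Irf7 at 309 and Isg15 at 283 CPM. In every other library they were at most at 9.73, 18.1, 176 and 138 CPM. With 6 libraries and this many genes, near patterns can arise for many genes. Likeness was computed for the members only, so how near is usual was not tested.

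**Figure D3:**
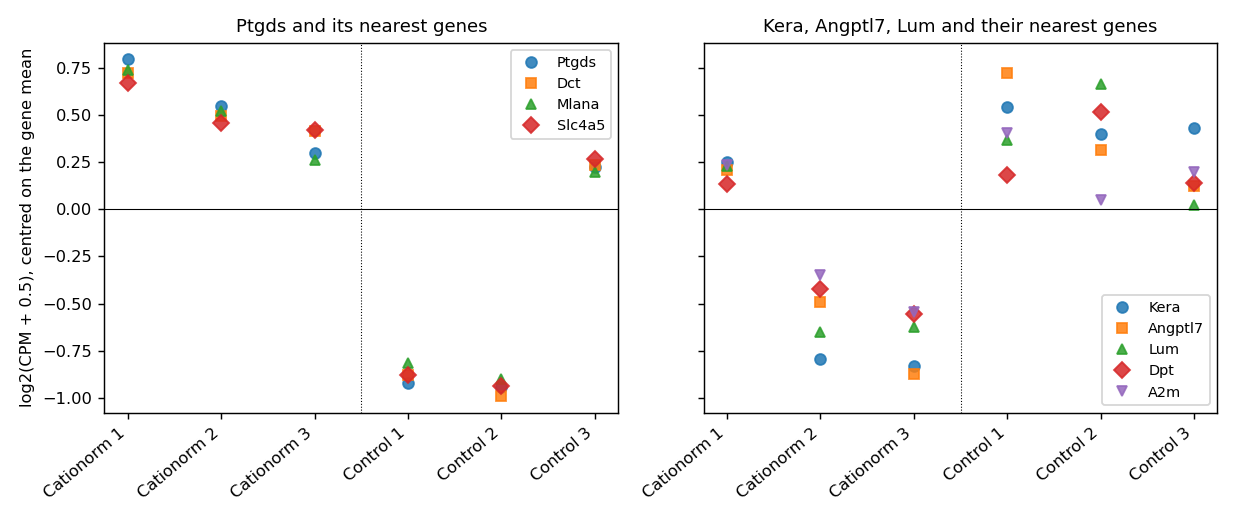
Centred log2 levels of Ptgds with its nearest genes (left) and of Kera, Angptl7 and Lum with Dpt and A2m (right) in the 3 Cationorm and the 3 Control libraries. Ptgds, Dct, Mlana and Slc4a5 were low in Control 1 and 2 alone, while the genes on the right were low in Cationorm 2 and 3 alone.

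Cationorm 1 was the highest Cationorm library for most stromal genes, though not for these alone. All 10 members were at their highest Cationorm level in this library, as were 14 of 17 fibril collagen and cross-linking genes, against 37.1% of all tested genes. The pigment cell list was also highest there, at 0.164% of counts against 0.136% and 0.139% in Cationorm 2 and 3. So were the retinal pigment epithelium, corneal endothelium and trabecular meshwork lists, but not the retina, lens and skeletal muscle lists. The 8 proteoglycan members summed to 2493, 1575 and 1540.5 CPM in Cationorm 1 to 3, against 2221, 2186 and 2130.4 CPM in Control 1 to 3. The sums of the Control libraries were close together, with Cationorm 1 above and Cationorm 2 and 3 below all of them.

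Levels were also set against Dcn within each library. Dcn itself was lower in Cationorm 2 and 3 than in any Control library, which raises the ratio of every other gene in those libraries. In Cationorm 1, Dcn was higher than in any Control library, which lowers every ratio in that library. Before division, Lum and Angptl7 lay within the Control range in Cationorm 1. Relative to Dcn, Kera, Lum and Angptl7 were lower in all Cationorm libraries, without overlap with Control, as were 0.287% of the 18803 other tested genes. The mean log2 ratio of Kera to Dcn was -3.30 ± 0.18 in Cationorm and -2.70 ± 0.07 in Control (SD, n = 3 each), a difference of -0.60. The difference was -0.38 for Lum and -0.45 for Angptl7. Bgn and Ptgds were higher relative to Dcn in every Cationorm library, with differences of 0.50 and 1.41, as were 6.62% of the other tested genes. The groups overlapped for the ratios of Fmod, Prelp, Ogn and Aspn. For each of the 5 ratios without overlap p was 0.1 in the two-sided exact permutation test, unadjusted over the 9 ratios computed, which is the smallest p that 3 against 3 libraries can give. Dcn was chosen as the divisor with these levels known.

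**Figure D4:**
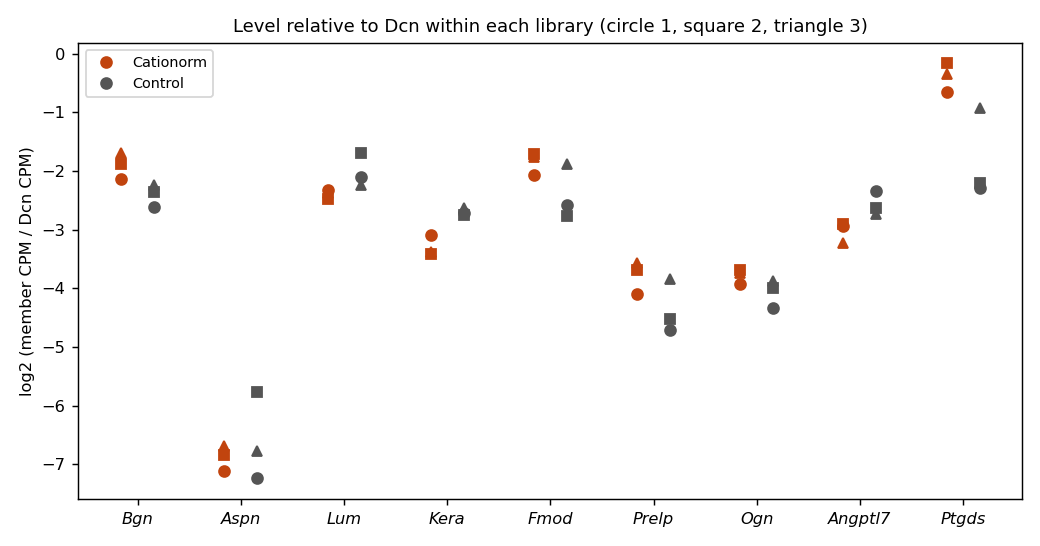
Log2 ratio of each other member's CPM to the CPM of Dcn within the same library, for the 3 Cationorm (left of each pair) and the 3 Control libraries. Kera, Lum and Angptl7 lie lower and Bgn and Ptgds higher in all Cationorm libraries than in all Control libraries.

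Genes that work with the members showed no call in either direction. Of 10 other leucine-rich proteoglycans and relatives, 5 had positive and 5 negative log2 fold changes (median -0.06), with 0 called. Optc, encoding opticin, a proteoglycan of the ciliary body and vitreous and the neighbour of Prelp, was at 48.0, 45.1 and 25.8 CPM in Cationorm 1 to 3, against 9.22, 11.3 and 24.3 CPM in Control 1 to 3. The groups did not overlap, with Control 3 again the highest Control library, and the log2 fold change was 1.41 ± 0.40 (SE, adjusted p = 0.550, edgeR). Podn, encoding podocan, had 0.85 ± 0.21 without overlap, and Epyc, the neighbour of Kera, had -0.71 ± 0.33 with overlap, and adjusted p was 0.550 for each.

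For the enzymes that build the sugar chains, fold changes were mostly small. Of 12 keratan sulfate genes, 9 had positive and 3 negative log2 fold changes (median 0.07), between -0.27 and 0.24, with 0 called. Chst5, the sulfotransferase of corneal keratan sulfate in mouse, was at 36.4 ± 1.24 CPM in Cationorm and 30.8 ± 5.47 CPM in Control. Of 23 tested chondroitin and dermatan sulfate genes, 11 had positive and 12 negative values (median -0.01), with 0 called. Chst3, a chondroitin 6-sulfotransferase, was at 4.01 ± 2.18 CPM in Cationorm and 8.10 ± 1.15 CPM in Control without overlap (log2 fold change -1.01 ± 0.39 SE, adjusted p = 0.550, edgeR). Dse, the epimerase that makes dermatan sulfate, was at 9.18 ± 1.66 CPM in Cationorm and 6.99 ± 0.763 CPM in Control, also without overlap (adjusted p = 0.550, edgeR).

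The collagen partners of these proteoglycans were also near the median of all genes. Of 17 fibril collagen and cross-linking genes, 7 had positive and 10 negative log2 fold changes (median -0.05), with 0 called. Col1a1 and Col1a2, the chains of type I collagen, were at 490.3 ± 82.6 and 483 ± 78.9 CPM in Cationorm and 455 ± 46.2 and 502 ± 41.3 CPM in Control. Loxl1, a lysyl oxidase that cross-links elastic fibres, was at 33.9 ± 3.32 CPM in Cationorm and 26.4 ± 2.74 CPM in Control without overlap (log2 fold change 0.36 ± 0.11 SE, adjusted p = 0.550, edgeR). Pcolce, an enhancer of procollagen processing, was at 162 ± 14.1 CPM in Cationorm and 141 ± 7.30 CPM in Control without overlap (adjusted p = 0.550, edgeR).

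Most other keratocyte and mesenchymal markers had positive fold changes, several of them near 0. Of 12 tested, 10 had positive and 2 negative log2 fold changes (median 0.10), with 0 called, where 9626 of all 18804 tested genes were positive. Prrx1 had 0.02 ± 0.15 and Aldh1a1 0.06 ± 0.10 (SE). Most of this list is expressed by other corneal or vascular cells as well. It held 2.867% to 2.968% of counts in Cationorm and 2.648% to 2.864% in Control, ranges that nearly met, most of it Aldh3a1 and Tkt. Vim, an intermediate filament gene of mesenchymal cells, was at 171 ± 12.95 CPM in Cationorm and 128 ± 28.1 CPM in Control without overlap (log2 fold change 0.42 ± 0.16 SE). Thy1, a surface protein of fibroblasts and nerve cells, was at 12.7 ± 3.29 CPM in Cationorm and 21.0 ± 6.24 CPM in Control with overlap (-0.73 ± 0.25 SE), and adjusted p was 0.550 for both genes. The trabecular meshwork and limbal stroma list had 5 of 9 genes with positive values (median 0.14) and the sclera and cartilage list 5 of 11 (median -0.02), with 0 called in each.

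**Figure D5:**
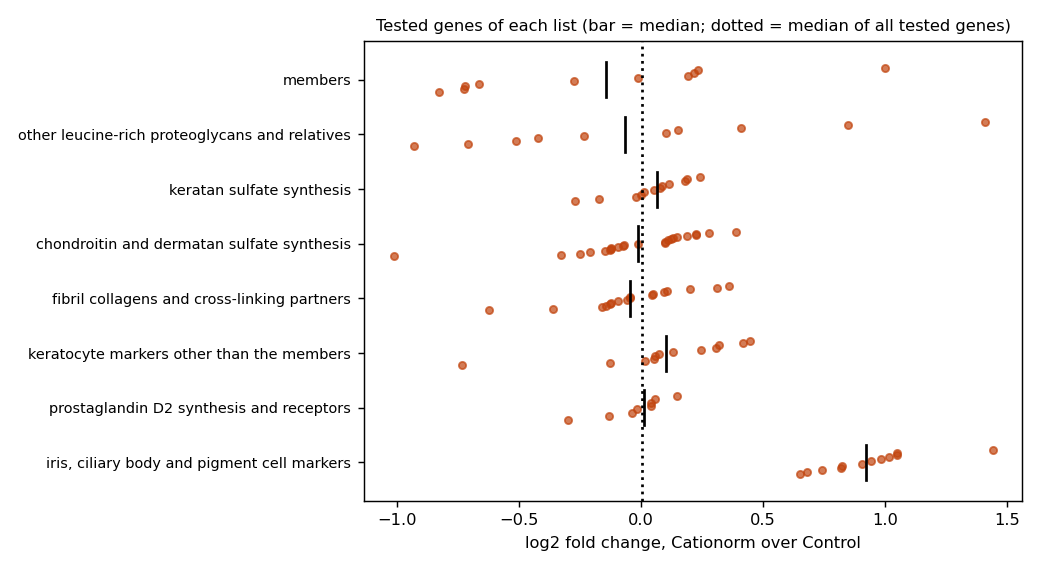
Log2 fold change (Cationorm over Control) of each tested gene of the member list and of 7 other lists, with the median of each list as a bar and the median of all tested genes as a dotted line. The pigment cell list lies to the right as a whole (median 0.92), while the sugar chain and collagen lists centre near 0.

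Markers of other tissues also differed between libraries. The pericyte and smooth muscle list held 0.0264% to 0.0333% of counts in Cationorm and 0.0117% to 0.0257% in Control, without overlap. The Schwann cell list held 0.02299% to 0.02397% in Cationorm and 0.02003% to 0.02296% in Control, ranges that nearly met. Most of it was Mbp, at 197 ± 6.83 CPM in Cationorm and 182 ± 7.22 CPM in Control. The corneal epithelium list held 3.41% to 3.60% in Cationorm and 3.36% to 3.77% in Control. The retina list held 0.194% to 0.645% in Cationorm and 0.524% to 0.784% in Control, and the lens list 0.172% to 0.649% in Cationorm and 0.00901% to 0.333% in Control. The part of these tissues in the levels of the proteoglycans was not tested.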

How the data were processed

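Per the labels' protocols, TruSeq libraries were prepared from mRNA-enriched TRIzol RNA of corneas. The authors deposited raw counts in whole numbers, 1 row per gene symbol, per the file headers and values. The submitters' processing notes name DESeq2 and the builds GRCm39 and mm39 with no role. No source used here gives the aligner, counter or strand setting. Columns were matched to samples by title. Of counts from 1 to 9, 63.6% were even, so a fragment may have added more than 1 count.

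After filterByExpr, 18804 of 35673 genes were tested, with TMM scaling. Cationorm was tested against Control with edgeR 4.0.16 (R 4.3.3), glmQLFit and glmQLFTest, no covariate, Benjamini-Hochberg adjustment over all tested genes at 0.05. Standard errors come from the fold change and the F statistic. Alternatives were DESeq2 1.42.0, limma-voom (limma 3.58.1), other scalings and filters, a replicate block and each library left out. The procedure was also run on data simulated from these counts, and the outcome is not used here. Members and lists were chosen with earlier results of these data known. All members are described; from other lists up to 3 genes with the smallest p and the 2 most abundant could be named, and for each member the 3 nearest genes (pseudocount 0.5). Transcript lengths and coding sequences are from GENCODE M21 (GRCm38), not the build of the files, so no coordinates are given. The precision of levels is set by the spread of 3 libraries.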

Additional observations from a re-analysis of the deposited data

How the results depend on the processing

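The number of members called stayed at 0 under all 13 alternatives. The number of genes called over the whole table was 0 with edgeR, 47 with DESeq2, and between 0 and 350 when 1 library was left out: 350 without Cationorm 3 (335 of them lower), 8 without Control 3 and 1 without Control 2. Of 130 member fold changes under alternatives, 126 kept their direction without a call and 4 changed sign, all of them for Ogn, whose log2 fold change ran from -0.22 to 0.11 with a library left out. With a library left out, Kera ran from -1.28 to -0.64, Lum from -1.01 to -0.51, Dcn from -0.58 to -0.13, Bgn from 0.04 to 0.27, Fmod from 0.04 to 0.46, Prelp from 0.11 to 0.47, Aspn from -0.97 to -0.21, Angptl7 from -1.08 to -0.51 and Ptgds from 0.78 to 1.49. The causes were not tested. Same-numbered libraries of the groups did not deviate together (Pearson's r over genes of -0.18, -0.31 and -0.16), so the numbers are not taken as pairs; with the replicate block 0 genes were called and the log2 fold change was -0.92 for Kera and 1.10 for Ptgds. The order of levels per kilobase depends on the transcript length chosen.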
